A study of Mus musculus with 16 samples.

Results

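Fatty acid oxidation is described here through 38 genes for the mitochondrial and peroxisomal pathways, their carnitine shuttle, their thioesterases and their regulators, in the kidneys of KlKl and control mice of both sexes. The genes were listed by function, with no measured value in the rule but with earlier results of these data known. All 38 were found among the 30277 genes of the deposited table. Whole kidneys of C57BL/6J mice congenic for a recessive mutation of Kl, the Klotho gene, gave 16 libraries of polyadenylated RNA, 4 in each of 4 groups. The groups were male KlKl and male control, and female KlKl and female control, with ages between 46 and 59 days. KlKl mice were homozygous for the Kl mutation and had renal failure per the labels, while controls had healthy renal function. Male controls 1 and 2 and all 4 female controls carried 1 mutant allele (+/Kl), and male controls 3 and 4 were wild type (+/+). Replicates 1 and 2 of each group have library names that begin with CFK and replicates 3 and 4 names that begin with CFdk. Kidneys were perfused, dissected and flash frozen. The labels number the replicates without stating that each is a separate animal, so p-values measure the spread between these libraries.

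Fatty acids enter tubule cells through transporters such as CD36, are activated to acyl-CoA, and cross into mitochondria as carnitine esters by way of CPT1, the carnitine-acylcarnitine carrier and CPT2. In the matrix a repeated cycle of dehydrogenation, hydration, oxidation and thiolysis shortens the chain and passes electrons through ETF to the respiratory chain. Peroxisomes shorten very long, branched and dicarboxylic chains by a parallel set of enzymes. The proximal tubule draws most of its energy from this pathway, and the nuclear receptor PPAR-alpha, with the coactivator PGC-1-alpha, is a known activator of many of its genes.

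PPAR-alpha with its partner RXR binds direct repeats of the half-site AGGTCA with 1 base between them. RefSeq promoter windows (GRCm38.p6, 250 bases before to 50 bases after the start site) were held for 34 of the 38 genes, and Hsd17b4, Decr1, Crat and Acaa2 had no entry. Both strands were searched for the repeat with at most 2 mismatches in its 12 half-site letters. It was found in 7 of the 34 windows, or 20.6%, against 1190 of 27025 windows of all genes, or 4.4%. The half-site AGGTCA alone, which overlaps the repeat, stood in 8 of the 34 windows, or 23.5%, and in 18.1% of all windows. The 7 repeats are shown because the list's known activator binds this kind of repeat, with 10 bases on either side and the half-sites in capitals.
Cd36: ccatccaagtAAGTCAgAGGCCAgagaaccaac
Echs1: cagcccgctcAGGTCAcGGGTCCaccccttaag
Etfa: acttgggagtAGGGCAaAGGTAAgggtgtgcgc
Slc25a20: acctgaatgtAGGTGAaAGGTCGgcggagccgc
Acot4: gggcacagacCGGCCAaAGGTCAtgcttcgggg
Acot12: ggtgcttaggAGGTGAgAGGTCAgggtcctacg
Acox2: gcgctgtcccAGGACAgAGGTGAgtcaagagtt
The Cd36 repeat lies at chr5:17835937-17835969 on the plus strand, with its centre 57 bases upstream of the start site. The Echs1 repeat lies at chr7:140116482-140116514 (minus strand, 77 bases upstream) and the Etfa repeat at chr9:55512298-55512330 (plus strand, 71 bases upstream). The Slc25a20 repeat lies at chr9:108662132-108662164 (plus strand, 13 bases downstream) and the Acot4 repeat at chr12:84038356-84038388 (minus strand, 7 bases upstream). The Acox2 repeat lies at chr14:8258808-8258840 (minus strand, 16 bases downstream). Acot12 alone held a repeat with 1 mismatch, at chr13:91741401-91741433 (minus strand, 104 bases upstream), and the others had 2. Its whole promoter window, at chr13:91741271-91741570 on the plus strand, holds that repeat in reverse complement, in capitals.
Acot12 promoter: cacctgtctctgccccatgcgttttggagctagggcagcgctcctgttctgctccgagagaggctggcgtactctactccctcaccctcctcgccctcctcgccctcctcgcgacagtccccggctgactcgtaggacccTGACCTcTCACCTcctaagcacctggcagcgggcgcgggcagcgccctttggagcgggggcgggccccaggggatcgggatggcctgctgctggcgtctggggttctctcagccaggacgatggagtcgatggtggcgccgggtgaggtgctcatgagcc
A match describes letters, not a binding site or a cause.

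Recovered depth was 13025070 to 20102216 reads in male libraries and 8207526 to 14501700 in female libraries. The deposited TPM follow reads divided by the whole span of a gene, introns included, so a level can be compared between libraries but not between genes. Transcripts of the mitochondrial genome took between 30.7% and 47.5% of each library's TPM, and the libraries of a comparison differed in the scale of most genes at once. The median log2(TPM + 1) difference over the 8059 genes tested was 0.33 for KlKl males against KlKl females, 0.26 for control males against control females, 0.18 for male KlKl against male control and 0.10 for female KlKl against female control. Values are therefore also given after median-ratio scaling, which divides each library by the median ratio of its genes to their average, and with limma voom on the recovered reads. Kl, the mutated gene, stood at 0.258 to 1.49 TPM in male KlKl and 7.82 to 11.7 TPM in male control kidneys, and at 0.0728 to 0.222 TPM in female KlKl and 2.04 to 5.73 TPM in female control kidneys, with no overlap in either sex.

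Of the 38 genes, 36 reached 1 TPM in at least 4 of the 16 libraries and were tested. Ppara and Ppargc1a did not, and Cd36, Acot12, Eci2 and Pdk4 reached that level in fewer than 4 female libraries. In whole kidney, fewer cells of a type and less RNA per cell cannot be told apart. The map of all 38 genes by library separates the 8 male from the 8 female kidneys for most genes, and shows no such separation of KlKl from control.

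**Figure D1:**
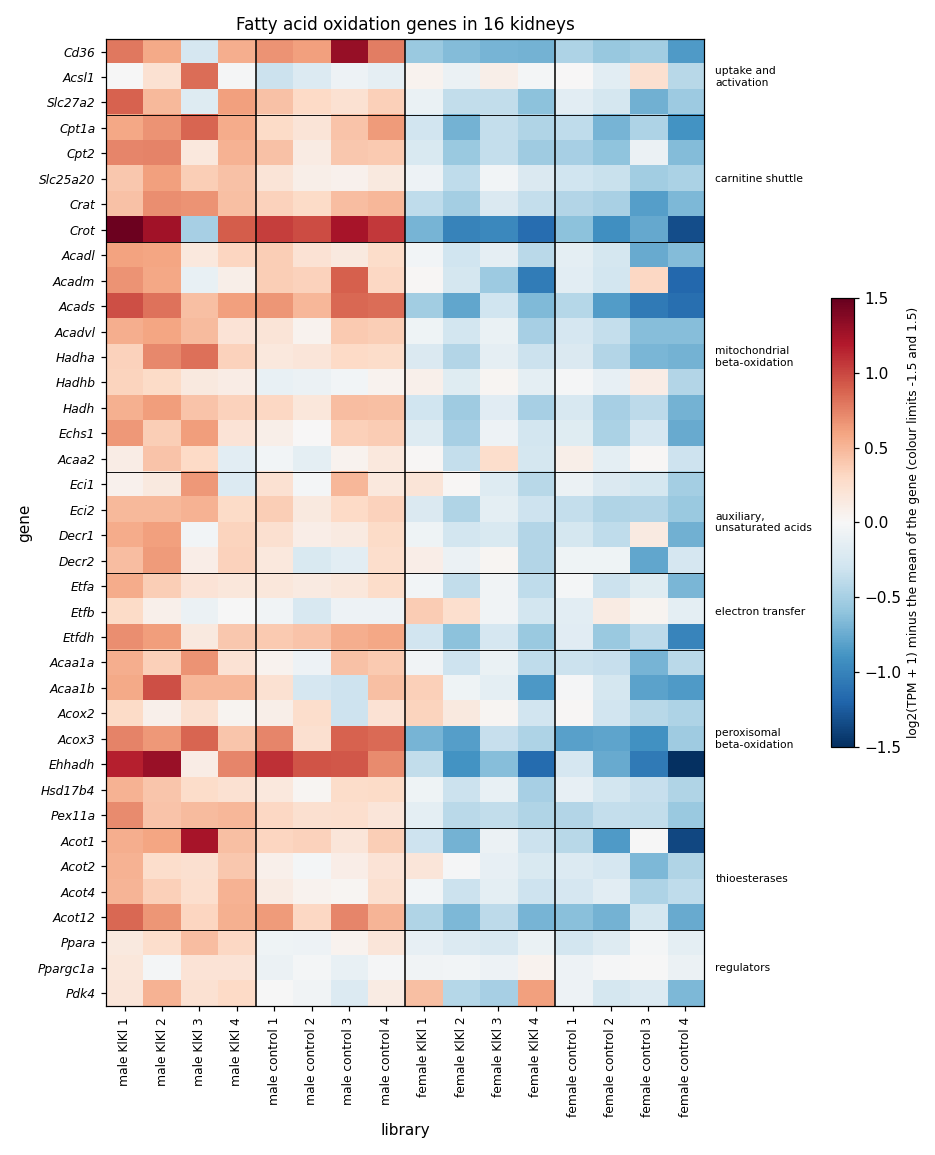
Each row is a gene, ordered by role, and each column a library in the order male KlKl, male control, female KlKl, female control. Colour is log2(TPM + 1) minus the mean of the gene over the 16 libraries, with colour limits of -1.5 and 1.5. Crot, Ehhadh and Acads stand highest in males, Etfb and Acsl1 show little contrast between the sexes, and male KlKl 3 is pale for Crot beside the other males.

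The first comparison set male against female kidneys. Fatty acid oxidation genes were higher in males in both genotypes. Among KlKl kidneys 30 of 36 genes (83.3%) were higher in males and 0 were lower at an adjusted p under 0.05, against 50.9% of all genes tested higher and 3.72% lower. Among controls 28 of 36 (77.8%) were higher and 0 lower, against 44.3% and 8.3% of all genes tested. The median gene of the list differed by 0.73 in KlKl and 0.69 in controls, and the median over all genes by 0.33 and 0.26. The median of the list lay above that of all genes in both genotypes. Cd36, Acot12, Eci2 and Pdk4 passed the filter through male libraries, and the first 3 are among the genes called. Of the 32 genes that reached 1 TPM in at least 4 libraries of each sex, 27 were higher in KlKl males and 25 in control males, against 47.4% and 40.6% of the 6251 genes that did so, and 0 were lower, against 3.31% and 8.29%.

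The count was smaller once libraries were scaled to each other. After median-ratio scaling 16 of 36 genes were higher and 1 was lower among KlKl kidneys, against 18.9% and 17.3% of all genes. Among controls 20 were higher and 1 lower after scaling, against 24.5% and 23.9% of all genes. The scaled medians of the list were 0.30 in KlKl and 0.33 in controls. Of the 32 genes at that level in both sexes, 13 were higher in KlKl males and 17 in control males after scaling, against 14.5% and 20.3% of the 6251, and 1 was lower in each, against 19.2% and 26.2%. With voom on recovered reads, which tested all 38 genes, 18 were higher in KlKl males and 20 in control males, against 15.3% and 21.4% of 17432 genes. Without the filter on low values 29 of 38 were higher in KlKl males and 25 in control males, against 24.9% and 18.7% of 29839 genes. Most of these genes were too low for the filter. Among the 8059 that passed it, 50.9% and 44.3% were higher in the main fit. With heterozygous controls alone, which leaves 2 control males, 21 of 36 were higher in control males, against 23.9% of all genes.

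The genes called higher in males in both genotypes numbered 27 on the deposited scale, 16 after median-ratio scaling and 17 with voom, against 41.2%, 16.9% and 13.6% of all genes in the same fits. Among the 32 genes at 1 TPM in both sexes they numbered 24 on the deposited scale and 13 after scaling, against 37.3% and 13% of the 6251. The 16 called by all 3 fits, against 16.3% of all genes, were Cd36, the carnitine genes Cpt1a, Cpt2, Slc25a20, Crat and Crot, the mitochondrial genes Acads, Hadha, Hadh and Etfdh, the isomerase gene Eci2, the peroxisomal genes Ehhadh, Acox3, Hsd17b4 and Pex11a, and the thioesterase gene Acot12. All 8 male libraries lay above all 8 female libraries for 22 of the 38 genes, against 30.2% of all genes tested. After scaling this held for 8 genes, against 12.3% of all genes, namely Cpt1a, Crat, Acads, Acadvl, Hadha, Eci2, Acox3 and Acot12. In the other direction only Etfb separated, lower in males after scaling, against 10.7% of all genes. Across the 36 genes the sex differences in KlKl and in controls, which share no library, had a Pearson r of 0.94 and a Spearman rho of 0.96. On the deposited scale 35 had the same sign, and after scaling 32 did. The share of all genes with the same sign is not given here, and their deposited median was itself positive in both genotypes. The 36 genes share their libraries and are not independent replicates.

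**Figure D2:**
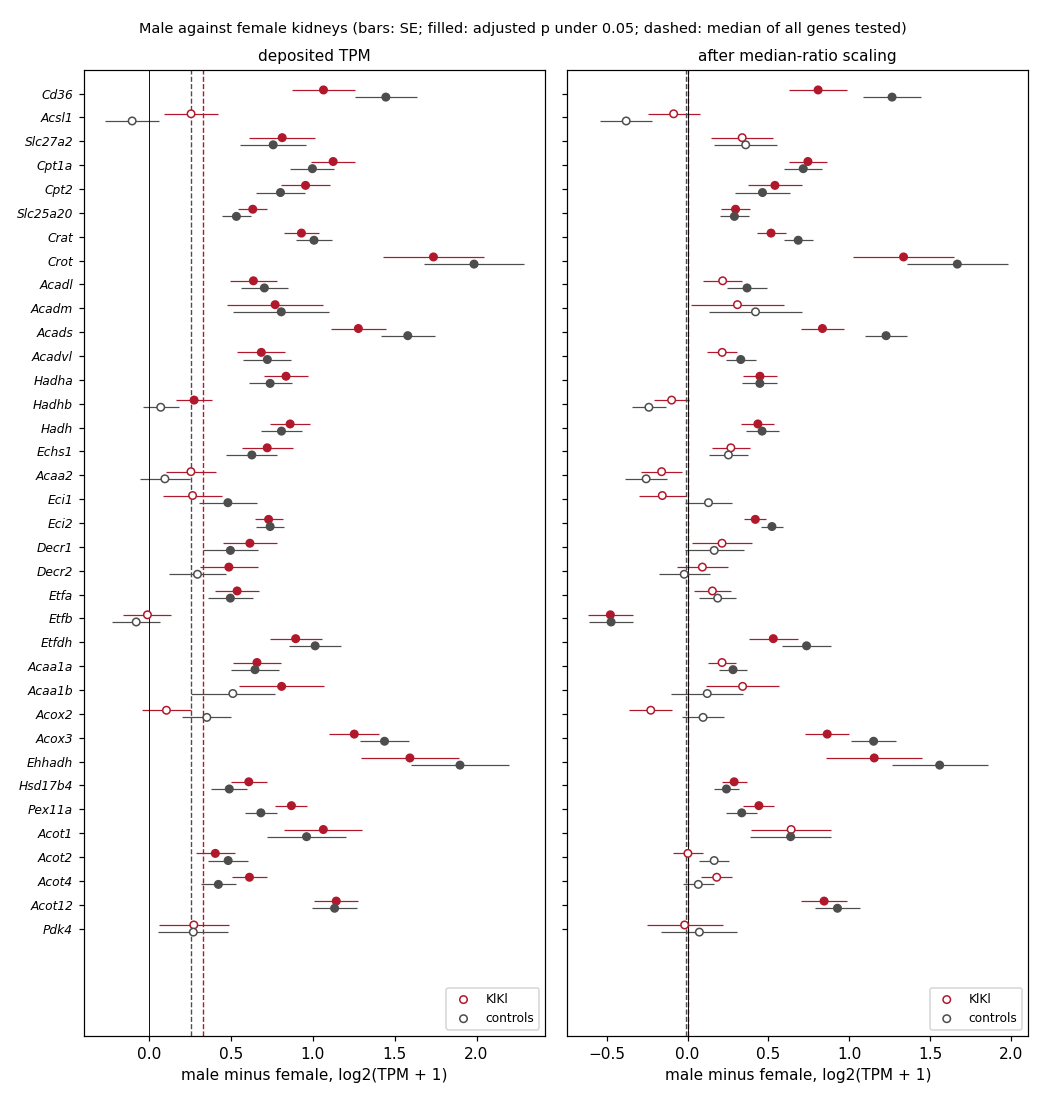
Differences between males and females in log2(TPM + 1), 1 gene per row, with KlKl in red above controls in grey. Bars are SE, filled points passed an adjusted p of 0.05, and dashed lines are the medians of all genes tested. The left panel uses deposited TPM and the right panel values after median-ratio scaling, where Crot stays at 1.33 in KlKl and 1.67 in controls and Etfb lies below 0.

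The carnitine shuttle held all 5 of its genes higher in males in both genotypes, on either scale. Of all genes tested, 50.9% were higher in KlKl males and 44.3% in control males, or 18.9% and 24.5% after scaling. Crot, the peroxisomal carnitine octanoyltransferase that exports shortened chains, had the largest sex difference of the 36 genes on the log2(TPM + 1) scale, while by voom Cd36 was ahead of it in both genotypes. It stood at 17.97, 15.3, 3.83 and 11.9 TPM in male KlKl kidneys, 13.04, 12.4, 15.1 and 13.2 in male controls, 3.21, 2.41, 2.499 and 2.11 in female KlKl kidneys and 3.46, 2.61, 3.03 and 1.71 in female controls. Every male library lay above every female library, the closest being male KlKl 3. The male minus female difference was 1.74 in KlKl and 1.99 in controls (SE 0.31 each, adjusted p = 0.000319 and 0.000116), and 1.33 in KlKl and 1.67 in controls (adjusted p = 0.00483 and 0.000661) after scaling.
Crat, the carnitine acetyltransferase, stood at 7.57, 9.23, 9.09 and 7.59 TPM in male KlKl kidneys, 7.02, 6.71, 7.71 and 7.896 in male controls, 3.85, 3.43, 4.44 and 3.94 in female KlKl kidneys and 3.66, 3.48, 2.56 and 2.96 in female controls. Males and females did not overlap, and the replicates of a group lay close together. Its difference was 0.93 in KlKl and 1.01 in controls (SE 0.11 each, adjusted p = 1.59e-05 and 7.42e-06).
Cpt1a, the outer-membrane carnitine palmitoyltransferase that controls entry of long chains, stood at 5.19, 5.61, 6.62 and 5.104 TPM in male KlKl kidneys, 4.06, 3.76, 4.58 and 5.45 in male controls, 2.39, 1.53, 2.24 and 2.04 in female KlKl kidneys and 2.19, 1.55, 1.999 and 1.23 in female controls. The lowest male, control 2, lay above the highest female, KlKl 1. Its difference was 1.12 in KlKl and 1.00 in controls (SE 0.13 each, adjusted p = 1.74e-05 and 3.85e-05), and 0.74 in KlKl and 0.71 in controls (adjusted p = 0.00047 and 0.000285) after scaling.
Cpt2, its inner-membrane partner, stood at 10.3, 10.4, 6.58 and 8.800 TPM in male KlKl kidneys, 8.23, 6.43, 8.03 and 7.95 in male controls, 4.81, 3.62, 4.33 and 3.698 in female KlKl kidneys and 3.83, 3.46, 5.41 and 3.34 in female controls. Male control 2 was lowest among males, and female control 3 highest among females. The difference was 0.96 in KlKl and 0.80 in controls (SE 0.15 each, adjusted p = 0.000145 and 0.000517). Slc25a20, which encodes the carnitine-acylcarnitine carrier between the 2 transferases, stood at 2.96, 3.56, 2.84 and 3.04 TPM in male KlKl kidneys, 2.41, 2.17, 2.13 and 2.31 in male controls, 1.84, 1.29, 1.91 and 1.57 in female KlKl kidneys and 1.43, 1.36, 1.08 and 1.15 in female controls. Males were again above all females, here by a smaller margin, with differences of 0.63 in KlKl and 0.53 in controls (SE 0.09 each, adjusted p = 6.68e-05 and 0.00023).

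Uptake and activation were less uniform, with 2 of 3 genes higher in males in each genotype. Of all genes tested 50.9% in KlKl and 44.3% in controls were so. After scaling 1 of 3 was higher in each, against 18.9% and 24.5%. With so few genes these counts are not far from the shares of all genes. Cd36, the scavenger receptor that takes up long-chain fatty acids, stood at 2.93, 2.36, 0.898 and 2.31 TPM in male KlKl kidneys, 2.61, 2.48, 4.61 and 2.87 in male controls, 0.541, 0.450, 0.402 and 0.387 in female KlKl kidneys and 0.642, 0.527, 0.576 and 0.256 in female controls. All females were below 1 TPM, and so was male KlKl 3, the only male there. The difference was 1.06 in KlKl and 1.45 in controls (SE 0.19 each, adjusted p = 0.000345 and 3.22e-05), an understatement on this scale for a gene so low in females. With voom on reads, which adds no TPM pseudocount, it was 1.68 in KlKl and 2.35 in controls, next to 1.60 and 2.02 for Crot.
Slc27a2, the transporter and very long-chain acyl-CoA synthetase FATP2 of the proximal tubule, stood at 122, 91.7, 57.2 and 100.3 TPM in male KlKl kidneys, 89.1, 80.8, 76.9 and 84.2 in male controls, 60.9, 50.3, 50.4 and 42.1 in female KlKl kidneys and 58.5, 54.3, 39.05 and 44.4 in female controls. Male KlKl 3 lay inside the female range, and the other 7 males lay above it. The difference of 0.81 in KlKl and 0.76 in controls (SE 0.20 each, adjusted p = 0.00337 and 0.00565) did not pass after scaling, at 0.34 in KlKl and 0.36 in controls (adjusted p = 0.18 and 0.135).
Acsl1, the main long-chain acyl-CoA synthetase of mitochondria and endoplasmic reticulum, stood at 2.18, 2.74, 4.71 and 2.15 TPM in male KlKl kidneys, 1.54, 1.77, 2.01 and 1.897 in male controls, 2.32, 2.000, 2.38 and 2.13 in female KlKl kidneys and 2.201, 1.86, 2.76 and 1.38 in female controls. Male controls overlapped both female groups, and male KlKl 3 stood far above every other library. Its difference was 0.26 in KlKl and -0.10 in controls (SE 0.17 each, adjusted p = 0.206 and 0.617), and after scaling -0.09 in KlKl and -0.38 in controls (adjusted p = 0.701 and 0.0641).

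**Figure D3:**
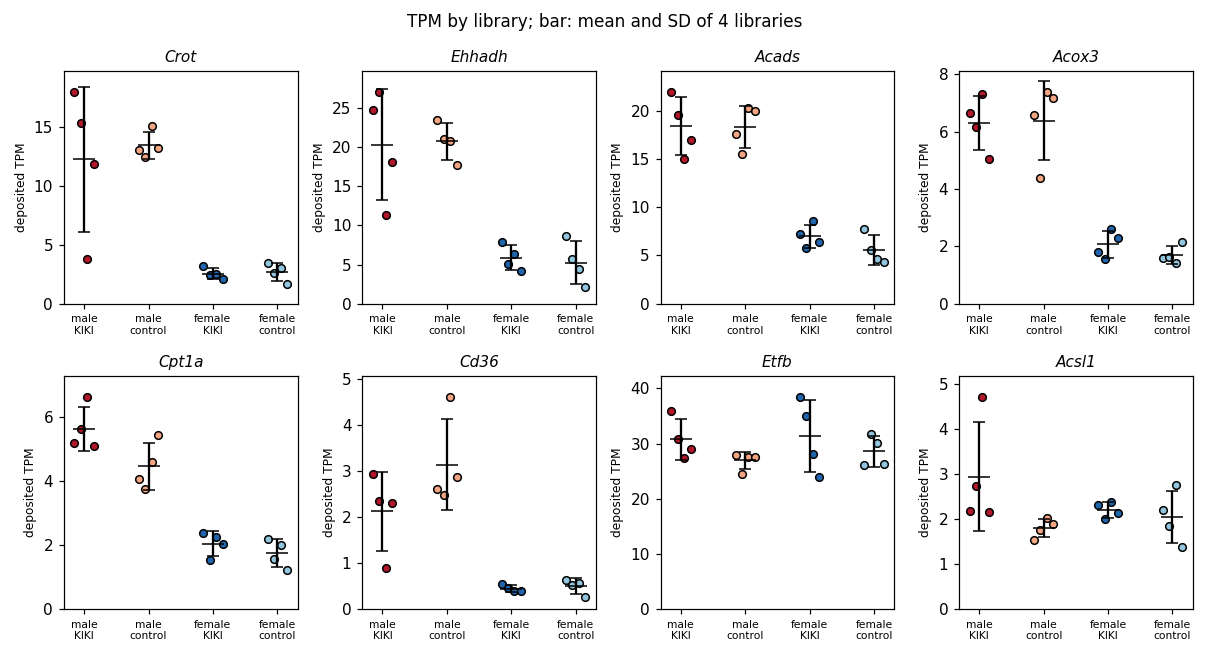
TPM in each of the 4 libraries per group for 8 genes, with the horizontal bar at the mean and whiskers of 1 SD. Crot, Ehhadh, Acads, Acox3, Cpt1a and Cd36 lie higher in both male groups, Etfb and Acsl1 overlap between the sexes, and male KlKl 3 is the low point for Crot at 3.83 TPM and the high point for Acsl1 at 4.71 TPM.

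In the mitochondrial spiral, 8 of 9 genes were higher in KlKl males and 7 of 9 in control males, against 50.9% and 44.3% of all genes. After scaling 3 and 5 of 9 were higher, against 18.9% and 24.5% of all genes. Acads, the short-chain acyl-CoA dehydrogenase, differed most. It stood at 21.9, 19.5, 15.03 and 16.96 TPM in male KlKl kidneys, 17.6, 15.6, 20.2 and 19.9 in male controls, 7.18, 5.803, 8.53 and 6.37 in female KlKl kidneys and 7.73, 5.52, 4.59 and 4.36 in female controls, with a gap between the lowest male and the highest female. Its mean was 18.4 ± 3.002 TPM in male KlKl and 18.3 ± 2.19 in male controls, against 6.97 ± 1.18 in female KlKl and 5.55 ± 1.54 in female controls (SD, n = 4 each). The difference was 1.28 in KlKl and 1.58 in controls (SE 0.17 each, adjusted p = 3.20e-05 and 5.64e-06), and 0.83 in KlKl and 1.23 in controls (adjusted p = 0.00047 and 1.47e-05) after scaling.
Acadm, the medium-chain dehydrogenase, stood at 38.7, 36.4, 22.1 and 25.4 TPM in male KlKl kidneys, 31.1, 30.8, 45.6 and 30.01 in male controls, 24.2, 19.8, 16.04 and 11.1 in female KlKl kidneys and 21.3, 19.7, 29.9 and 10.03 in female controls. It was the most variable of the dehydrogenases, and females reached into the male range. The difference of 0.77 in KlKl and 0.81 in controls (SE 0.29 each, adjusted p = 0.0365 and 0.0304) did not pass after scaling, at 0.31 in KlKl and 0.42 in controls (adjusted p = 0.419 and 0.239). Acadl, the long-chain dehydrogenase, stood at 9.96, 9.88, 7.06 and 8.07 TPM in male KlKl kidneys, 8.31, 7.42, 7.03 and 7.73 in male controls, 6.02, 4.88, 5.61 and 4.48 in female KlKl kidneys and 5.52, 5.03, 3.297 and 3.62 in female controls. All males were above all females, with differences of 0.64 in KlKl and 0.70 in controls (SE 0.14 each, adjusted p = 0.00191 and 0.00101), of which that in controls passed after scaling (adjusted p = 0.0217).
Acadvl, the very long-chain dehydrogenase bound to the inner membrane, stood at 55.2, 56.8, 52.3 and 43.2 TPM in male KlKl kidneys, 42.8, 38.7, 49.3 and 48.8 in male controls, 35.8, 30.8, 34.97 and 26.2 in female KlKl kidneys and 31.3, 28.99, 23.6 and 23.7 in female controls. Males and females did not overlap on either scale. Its difference was 0.69 in KlKl and 0.72 in controls (SE 0.15 each, adjusted p = 0.00123 and 0.000893). After scaling it was 0.21 in KlKl and 0.33 in controls (adjusted p = 0.0788 and 0.00859), so that the call in KlKl was lost, as it was with voom (adjusted p = 0.0886).

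Hadha and Hadhb encode the alpha and beta subunits of the mitochondrial trifunctional protein, and lie head to head on chromosome 5 (build mm39), Hadha at 30323302 to 30360161 on the minus strand and Hadhb at 30360246 to 30389592 on the plus strand. The library kit was directional, but whether strand was used in counting is not given in the sources used here. Hadha stood at 4.75, 6.46, 6.97 and 4.73 TPM in male KlKl kidneys, 4.04, 4.102, 4.56 and 4.44 in male controls, 2.89, 2.33, 3.11 and 2.62 in female KlKl kidneys and 2.89, 2.33, 1.801 and 1.76 in female controls. Every male was above every female, on either scale, with differences of 0.84 in KlKl and 0.74 in controls (SE 0.13 each, adjusted p = 0.00014 and 0.000338). Hadhb stood at 4.38, 4.21, 3.73 and 3.64 TPM in male KlKl kidneys, 2.96, 3.04, 3.16 and 3.44 in male controls, 3.51, 2.78, 3.37 and 2.87 in female KlKl kidneys and 3.23, 2.92, 3.64 and 2.17 in female controls. Here male and female controls overlapped, while all 4 KlKl males were above all 4 KlKl females. Its difference was 0.27 in KlKl and 0.07 in controls (SE 0.11 each, adjusted p = 0.046 and 0.608), and it turned negative after scaling, at -0.10 in KlKl and -0.24 in controls (adjusted p = 0.491 and 0.0775). Of the subunits of this complex, Hadha passed in both genotypes and Hadhb in KlKl, and the difference between these genes was not tested.
Hadh, the short-chain hydroxyacyl-CoA dehydrogenase, stood at 10.7, 11.4, 9.86 and 9.23 TPM in male KlKl kidneys, 8.97, 8.100, 10.1 and 10.02 in male controls, 5.56, 4.56, 6.15 and 4.71 in female KlKl kidneys and 5.84, 4.702, 5.16 and 3.93 in female controls. The groups of each sex were tight and apart, with differences of 0.86 in KlKl and 0.81 in controls (SE 0.12 each, adjusted p = 6.89e-05 and 0.000103). Echs1, the short-chain enoyl-CoA hydratase, stood at 22.3, 18.1, 21.9 and 16.1 TPM in male KlKl kidneys, 14.8, 13.9, 18.02 and 18.3 in male controls, 11.9, 9.52, 13.1 and 11.3 in female KlKl kidneys and 12.1, 9.61, 11.4 and 7.78 in female controls. No female reached the lowest male, and its differences of 0.72 in KlKl and 0.63 in controls (SE 0.16 each, adjusted p = 0.00132 and 0.00358) did not pass after scaling. Acaa2, the mitochondrial thiolase, ranged from 5.54 to 8.86 TPM in males and from 4.73 to 7.76 TPM in females, with differences of 0.26 in KlKl and 0.10 in controls that passed in neither genotype.

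The auxiliary enzymes move or remove double bonds of unsaturated chains. Here 3 of 4 genes were higher in males in each genotype, against 50.9% of all genes in KlKl and 44.3% in controls. After scaling 1 of 4 was higher in each, near the 18.9% and 24.5% of all genes. Eci2, the enoyl-CoA isomerase of peroxisomes and mitochondria, was the one that remained. It stood at 2.57, 2.56, 2.65 and 2.12 TPM in male KlKl kidneys, 2.28, 1.82, 2.14 and 2.24 in male controls, 1.18, 0.858, 1.29 and 1.05 in female KlKl kidneys and 0.987, 0.862, 0.885 and 0.738 in female controls, and no female came near the males. The difference was 0.73 in KlKl and 0.74 in controls (SE 0.09 each, adjusted p = 1.55e-05 and 1.13e-05), and 0.42 in KlKl and 0.52 in controls (adjusted p = 0.000514 and 5.25e-05) after scaling.
Eci1, the mitochondrial isomerase, stood at 7.32, 7.78, 11.4 and 5.88 TPM in male KlKl kidneys, 8.28, 6.75, 10.2 and 7.83 in male controls, 8.07, 7.03, 5.92 and 4.93 in female KlKl kidneys and 6.47, 5.83, 5.59 and 4.58 in female controls. Male and female controls did not overlap, most KlKl males lay inside the female range, and male KlKl 3 was above all other libraries. Its difference was 0.27 in KlKl and 0.48 in controls (SE 0.18 each, adjusted p = 0.219 and 0.0334). Decr1, the mitochondrial dienoyl-CoA reductase, stood at 7.698, 8.02, 4.75 and 6.46 TPM in male KlKl kidneys, 5.99, 5.34, 5.49 and 6.19 in male controls, 4.67, 3.88, 4.05 and 3.37 in female KlKl kidneys and 3.92, 3.55, 5.51 and 2.59 in female controls. Female control 3 was in the male range, and the difference was 0.62 in KlKl and 0.50 in controls (SE 0.17 each, adjusted p = 0.00604 and 0.021). Decr2, the peroxisomal reductase, stood at 6.23, 7.18, 4.65 and 5.67 TPM in male KlKl kidneys, 4.85, 3.48, 3.71 and 5.29 in male controls, 4.66, 3.93, 4.37 and 2.86 in female KlKl kidneys and 4.04, 4.03, 2.06 and 3.42 in female controls. Males and females overlapped, with differences of 0.49 in KlKl and 0.30 in controls (SE 0.18 each, adjusted p = 0.0294 and 0.172). After scaling Eci1, Decr1 and Decr2 passed in neither genotype.

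In electron transfer 2 of 3 genes were higher in males in each genotype, against 50.9% of all genes in KlKl and 44.3% in controls. After scaling 1 was higher in each, against 18.9% and 24.5%, and 1 lower, against 17.3% and 23.9%. With so few genes these counts are not far from the shares of all genes. Etfdh, the ubiquinone oxidoreductase that takes electrons from ETF, stood at 5.47, 5.18, 3.395 and 4.26 TPM in male KlKl kidneys, 4.24, 4.34, 4.81 and 4.96 in male controls, 2.26, 1.602, 2.36 and 1.72 in female KlKl kidneys and 2.54, 1.71, 2.04 and 0.998 in female controls. All males were above all females, with differences of 0.90 in KlKl and 1.01 in controls (SE 0.16 each, adjusted p = 0.000345 and 0.000134), and 0.53 in KlKl and 0.74 in controls (adjusted p = 0.0148 and 0.00136) after scaling. Etfa, the alpha subunit of ETF, stood at 5.92, 5.06, 4.42 and 4.31 TPM in male KlKl kidneys, 4.301, 4.17, 4.304 and 4.69 in male controls, 3.58, 2.64, 3.52 and 2.61 in female KlKl kidneys and 3.61, 2.77, 3.14 and 1.92 in female controls. The sexes did not overlap, and the difference was 0.54 in KlKl and 0.50 in controls (SE 0.14 each, adjusted p = 0.00383 and 0.00685), which passed in neither genotype after scaling. Etfb, the beta subunit, stood at 35.9, 30.8, 27.4 and 28.9 TPM in male KlKl kidneys, 27.99, 24.5, 27.6 and 27.6 in male controls, 38.4, 35.1, 28.1 and 23.97 in female KlKl kidneys and 26.1, 31.8, 30.1 and 26.3 in female controls. Males and females spanned much the same range, with differences of -0.01 in KlKl and -0.08 in controls (SE 0.15 each, adjusted p = 0.957 and 0.667). After scaling Etfb was lower in males, at -0.48 in KlKl and -0.47 in controls (adjusted p = 0.0153 and 0.0115), the only gene of the list lower in males in both genotypes.

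In the peroxisomal pathway 6 of 7 genes were higher in KlKl males and 5 of 7 in control males, against 50.9% and 44.3% of all genes. After scaling 4 and 5 of 7 were higher, against 18.9% and 24.5% of all genes. Ehhadh, the bifunctional enzyme of the inducible pathway, stood at 24.7, 27.04, 11.3 and 18.04 TPM in male KlKl kidneys, 23.4, 21.1, 20.8 and 17.7 in male controls, 7.87, 5.13, 6.34 and 4.13 in female KlKl kidneys and 8.64, 5.77, 4.498 and 2.16 in female controls. The lowest male, KlKl 3, still lay above the highest female, control 1. Group means were 20.3 ± 7.08 TPM in male KlKl and 20.8 ± 2.34 in male controls, against 5.87 ± 1.61 in female KlKl and 5.27 ± 2.702 in female controls (SD, n = 4 each). The difference was 1.59 in KlKl and 1.90 in controls (SE 0.30 each, adjusted p = 0.00052 and 0.000139), and 1.15 in KlKl and 1.56 in controls (adjusted p = 0.00828 and 0.00075) after scaling.
Acox3, a branched-chain acyl-CoA oxidase, stood at 6.66, 6.17, 7.31 and 5.06 TPM in male KlKl kidneys, 6.58, 4.38, 7.38 and 7.19 in male controls, 1.81, 1.57, 2.59 and 2.31 in female KlKl kidneys and 1.58, 1.62, 1.43 and 2.16 in female controls. No female exceeded 2.59 TPM and no male was under 4.38 TPM. Its difference was 1.25 in KlKl and 1.44 in controls (SE 0.15 each, adjusted p = 2.0e-05 and 5.91e-06). Acox2, the oxidase of bile acid intermediates, stood at 2.85, 2.33, 2.71 and 2.25 TPM in male KlKl kidneys, 2.34, 2.79, 1.54 and 2.66 in male controls, 2.98, 2.49, 2.23 and 1.57 in female KlKl kidneys and 2.18, 1.58, 1.36 and 1.29 in female controls. The sexes overlapped, and the differences of 0.11 in KlKl and 0.35 in controls (SE 0.15 each, adjusted p = 0.57 and 0.0587) did not pass. Acox3 passed and Acox2 did not, and the difference between these genes was not tested.
Hsd17b4, the D-bifunctional protein of the branched-chain route, stood at 3.105, 2.81, 2.44 and 2.33 TPM in male KlKl kidneys, 2.19, 1.91, 2.44 and 2.49 in male controls, 1.73, 1.27, 1.64 and 1.02 in female KlKl kidneys and 1.61, 1.36, 1.24 and 1.08 in female controls. Males were above all females, with differences of 0.61 in KlKl and 0.49 in controls (SE 0.11 each, adjusted p = 0.000374 and 0.00191). Pex11a, a peroxisome division protein, stood at 12.1, 9.78, 10.2 and 10.4 TPM in male KlKl kidneys, 8.99, 8.52, 8.61 and 8.16 in male controls, 6.25, 5.09, 5.21 and 4.87 in female KlKl kidneys and 4.92, 5.29, 5.22 and 4.45 in female controls. The lowest male exceeded the highest female, and the difference was 0.87 in KlKl and 0.68 in controls (SE 0.10 each, adjusted p = 1.14e-05 and 6.51e-05).
Acaa1a and Acaa1b encode near-identical peroxisomal thiolases on chromosome 9, so that the split of reads between them is uncertain. Acaa1a stood at 15.97, 13.98, 17.6 and 12.5 TPM in male KlKl kidneys, 11.1, 10.1, 14.8 and 14.3 in male controls, 10.2, 8.38, 9.88 and 7.95 in female KlKl kidneys and 8.33, 8.18, 6.16 and 7.82 in female controls. Male control 2 was just under female KlKl 1, and the difference was 0.66 in KlKl and 0.65 in controls (SE 0.15 each, adjusted p = 0.00172 and 0.0021). After scaling it was 0.21 in KlKl and 0.28 in controls (adjusted p = 0.0716 and 0.0169), which passed in controls alone. Acaa1b stood at 47.1, 62.3, 44.8 and 44.9 TPM in male KlKl kidneys, 36.99, 26.3, 25.2 and 43.4 in male controls, 40.5, 30.1, 28.4 and 16.9 in female KlKl kidneys and 30.99, 26.1, 17.6 and 17.1 in female controls. All KlKl males were above the KlKl females, while control males and females overlapped. Its difference was 0.81 in KlKl and 0.51 in controls (SE 0.26 each, adjusted p = 0.015 and 0.107), and after scaling it passed in neither genotype.

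The acyl-CoA thioesterases release free fatty acid from acyl-CoA. All 4 genes were higher in males in each genotype, against 50.9% of all genes in KlKl and 44.3% in controls. After scaling 1 of 4 was higher in KlKl and 2 of 4 in controls, against 18.9% and 24.5% of all genes. Acot12, the acetyl-CoA hydrolase whose promoter is printed above, stood at 3.49, 2.91, 2.08 and 2.58 TPM in male KlKl kidneys, 2.84, 2.07, 3.12 and 2.52 in male controls, 0.812, 0.554, 0.890 and 0.532 in female KlKl kidneys and 0.600, 0.520, 1.07 and 0.467 in female controls. Nearly all females were under 1 TPM and every male was above 2 TPM. The difference was 1.14 in KlKl and 1.13 in controls (SE 0.14 each, adjusted p = 1.64e-05 and 1.48e-05), and 0.84 in KlKl and 0.93 in controls (adjusted p = 0.000665 and 0.000166) after scaling. In recovered reads it was 1.54 in KlKl and 1.74 in controls by voom.
Acot1, Acot2 and Acot4 are closely related neighbours on chromosome 12, cytosolic, mitochondrial and peroxisomal in that order, and the division of reads among them is uncertain. Acot1 stood at 9.01, 9.32, 15.2 and 8.42 TPM in male KlKl kidneys, 7.59, 7.703, 6.82 and 7.89 in male controls, 4.53, 3.202, 5.47 and 4.49 in female KlKl kidneys and 4.16, 2.83, 5.85 and 1.67 in female controls. The sexes did not overlap, and male KlKl 3 was far above the other males. The difference was 1.06 in KlKl and 0.96 in controls (SE 0.24 each, adjusted p = 0.00175 and 0.00367), and after scaling it passed in controls alone (adjusted p = 0.0566 in KlKl and 0.0462 in controls). Acot2 stood at 6.88, 5.58, 5.49 and 6.305 TPM in male KlKl kidneys, 4.82, 4.37, 4.89 and 5.36 in male controls, 5.24, 4.42, 4.05 and 3.696 in female KlKl kidneys and 3.79, 3.62, 2.45 and 3.02 in female controls. Female KlKl 1 lay inside the male control range, and the difference was 0.40 in KlKl and 0.48 in controls (SE 0.12 each, adjusted p = 0.0104 and 0.00375). Acot4 stood at 11.9, 10.6, 9.78 and 12.02 TPM in male KlKl kidneys, 8.92, 8.39, 8.28 and 9.71 in male controls, 7.79, 6.28, 7.21 and 6.31 in female KlKl kidneys and 6.62, 7.15, 5.61 and 5.99 in female controls. Its males were all above its females, with differences of 0.61 in KlKl and 0.42 in controls (SE 0.11 each, adjusted p = 0.000293 and 0.00415). Acot2 and Acot4 passed in neither genotype after scaling.

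Of the regulators, Ppara and Ppargc1a fell below the filter, on TPM that divide by whole gene spans of 67838 and 113478 bases. Ppara, the nuclear receptor PPAR-alpha, stood at 0.568, 0.694, 0.953 and 0.758 TPM in male KlKl kidneys, 0.355, 0.344, 0.467 and 0.603 in male controls, 0.301, 0.227, 0.200 and 0.319 in female KlKl kidneys and 0.169, 0.232, 0.386 and 0.273 in female controls, from 199 to 872 reads a library. No library reached 1 TPM, and the 4 KlKl males were above all other libraries except male control 4. The voom difference of males from females was 1.04 in KlKl (SE 0.25, adjusted p = 0.00602) and 0.48 in controls (SE 0.25, adjusted p = 0.139), so that it was higher in KlKl males by that fit. Ppargc1a, the coactivator PGC-1-alpha, stood at 1.01, 0.748, 1.06 and 1.06 TPM in male KlKl kidneys, 0.674, 0.755, 0.651 and 0.763 in male controls, 0.715, 0.740, 0.700 and 0.852 in female KlKl kidneys and 0.691, 0.764, 0.772 and 0.684 in female controls. Its voom difference was -0.10 in KlKl (SE 0.15, adjusted p = 0.632) and -0.38 in controls (SE 0.15, adjusted p = 0.0494), so that it was lower in control males by that fit.
Pdk4, the kinase that shuts pyruvate out of oxidation when fatty acids are burned, stood at 1.599, 2.300, 1.68 and 1.83 TPM in male KlKl kidneys, 1.29, 1.21, 0.988 and 1.49 in male controls, 2.13, 0.700, 0.631 and 2.52 in female KlKl kidneys and 1.19, 0.908, 0.985 and 0.436 in female controls. Female KlKl libraries spread from 0.631 to 2.52 TPM and covered both male groups. The sex difference was 0.27 in KlKl and 0.27 in controls (SE 0.21 each, adjusted p = 0.292 and 0.302) and did not pass.

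The second comparison set KlKl against control kidneys of the same sex, the contrast of renal failure with healthy renal function. No gene of the list passed in either sex. In males 0 of 36 passed at an adjusted p under 0.05, against 0.0993% of all genes tested, while 10 genes (27.8%) had an unadjusted p under 0.05, next to 19.9% of all. In females 0 passed, against 0.0124%, while 4 genes (11.1%) had an unadjusted p under 0.05, next to 4.67% of all. For the mean effect of both sexes 0 passed, against 0.0372%, while 14 genes (38.9%) reached an unadjusted p under 0.05, next to 26.3% of all. For the difference of the effect between males and females 0 passed, against 0% of all genes, while 0 had an unadjusted p under 0.05, next to 2.17% of all. Median-ratio scaling and voom also called 0 genes of the list in these comparisons.

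The median gene of the list differed between KlKl and control by 0.17 in males and 0.16 in females, next to 0.18 and 0.10 for all genes. After scaling the medians were -0.04 in males and 0.01 in females. All 4 male KlKl libraries lay above all 4 male controls for 10 of the 38 genes, against 11.6% of all genes. These were Acsl1, Slc25a20, Hadha, Hadhb, Acaa1b, Pex11a, Acot1, Acot2, Acot4 and Pdk4. After scaling 0 did, against 2.17%, and Cd36 lay below all male controls, against 2.21%. In females 0 genes of the list separated in this direction on the deposited scale, against 2.79%, or after scaling, against 0.745%. With age in days as a covariate, 2 genes passed in males (Hadha and Slc25a20), against 11.3% of all genes. With the same covariate 5 passed for the mean effect (Acot2, Hadha, Crat, Slc25a20 and Acaa1a), against 17.5%. The oldest of the 16 were male KlKl 4 at 59 days and female control 3 at 57 days.

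**Figure D4:**
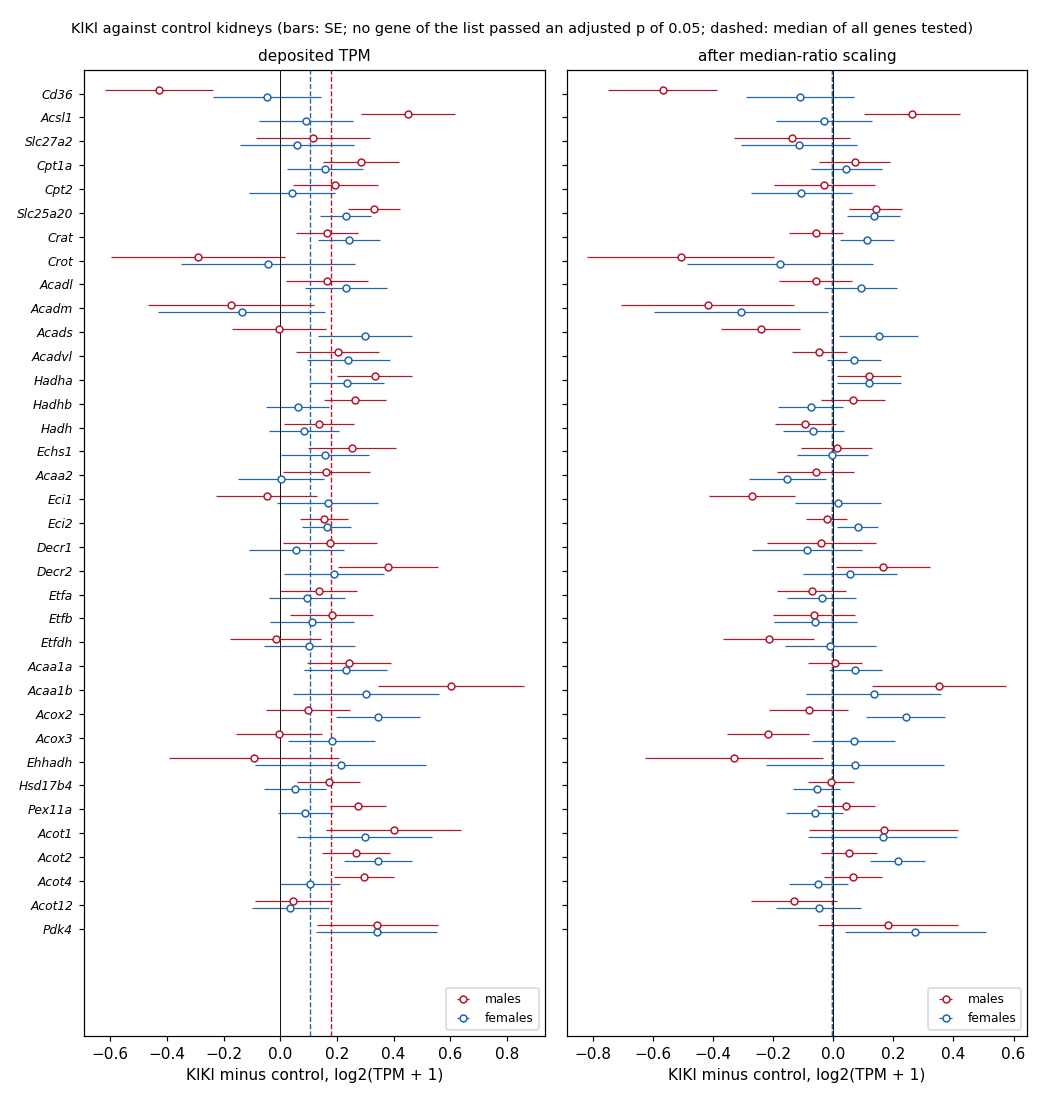
KlKl minus control in log2(TPM + 1), 1 gene per row, males in red above females in blue. Bars are SE and dashed lines the medians of all genes tested, for deposited TPM on the left and after median-ratio scaling on the right. On the left most points sit near the dashed medians at 0.18 and 0.10, on the right they lie on both sides of 0, and no gene of the list passed.

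Slc25a20 came closest to the threshold. The carrier gene differed by 0.33 in males (SE 0.09, adjusted p = 0.186) and 0.23 in females (SE 0.09, adjusted p = 0.727), and by 0.28 as the mean of both sexes (SE 0.06, adjusted p = 0.154). After scaling the mean effect was 0.14 (adjusted p = 0.853). The largest male differences were those of Acaa1b, Acsl1 and Cd36. Acaa1b differed by 0.60 in males (SE 0.26, adjusted p = 0.235) and 0.30 in females (SE 0.26, adjusted p = 0.729). Acsl1 differed by 0.45 in males (SE 0.17, adjusted p = 0.219) and 0.09 in females (SE 0.17, adjusted p = 0.847). Cd36 differed by -0.43 in males (SE 0.19, adjusted p = 0.241) and -0.05 in females (SE 0.19, adjusted p = 0.936), the other way from most genes. In females the largest were Acot2 (0.35), Acox2 (0.34) and Pdk4 (0.34), each with an adjusted p of 0.727. For the mean of both sexes they were Acaa1b (0.45), Acot1 (0.35) and Pdk4 (0.34), with adjusted p of 0.169, 0.194 and 0.177. The male minus female difference of the effect was largest for Cd36 (-0.38), Acsl1 (0.36) and Ehhadh (-0.31), each with an adjusted p of 1. Across the 36 genes the male and the female effect had an r of 0.51 and a rho of 0.40 and shared their sign for 31, or for 22 after scaling, with genes not independent replicates.

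The rate-limiting and regulatory genes had wide intervals. Cpt1a differed between KlKl and control by 0.28 in males (SE 0.13, adjusted p = 0.252) and 0.16 in females (SE 0.13, adjusted p = 0.729), and Cpt2 by 0.19 in males and 0.04 in females. Ehhadh differed by -0.09 in males and 0.21 in females and Acadm by -0.17 in males and -0.14 in females, with SE of 0.30 and 0.29. The 95% interval of the male effect ran from -0.000653 to 0.57 for Cpt1a and from -0.73 to 0.55 for Ehhadh. The data do not separate effects within those intervals from each other. Ppara differed by 0.47 in males and -0.10 in females by voom (adjusted p = 0.841 and 1), and Ppargc1a by 0.14 and -0.13.

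Male KlKl 3 lay far from the other KlKl males for some genes, in both directions. It was more than 0.5 from the median of the other 3 libraries, in log2(TPM + 1), for 10 of the 38 genes, where male KlKl 1, 2 and 4 were so for 2, 2 and 1. Its rank did not set it apart, since it was lowest of its group for 17 genes and male KlKl 4 for 16, while male KlKl 1 was highest for 16, male KlKl 2 for 11 and male KlKl 3 for 9. Crot was 3.83 TPM there against 11.9 to 17.97 in the other KlKl males, and Ehhadh 11.3 against 18.04 to 27.04. Cd36, Slc27a2 and Acadm were also lowest there, while Acsl1, Acot1, Eci1 and Hadha were highest. The proximal tubule marker Slc7a13 was 4.53 TPM in that library against 20.6 to 44.4 in the other KlKl males, and Slc22a30 0.250 against 1.97 to 2.68. The 11 proximal tubule markers together summed to 437.3 TPM in it, between the 387.7 of male KlKl 4 and the 458.6 and 465.9 of male KlKl 2 and 1. Of the KlKl males it was lowest for 6 of these markers and highest for 3. Their part in its values was not tested. Without it the KlKl effect in males turned positive for Crot, at 0.14 (SE 0.17) in place of -0.29, and for Ehhadh, at 0.15 (SE 0.29) in place of -0.09. Cd36 moved to -0.21, Acsl1 to 0.26 and Acot1 to 0.22, and none of these passed. Without it the sex difference among KlKl kidneys was 2.17 for Crot, 1.83 for Ehhadh and 1.29 for Cd36. Again 30 of 36 genes were higher in males, where 50.9% of all genes were so with that library included.

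**Figure D5:**
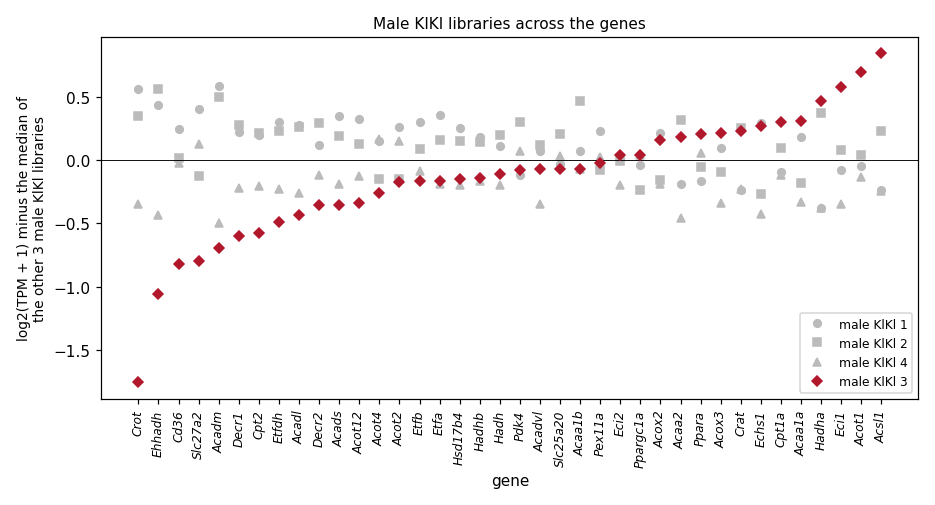
For each of the 38 genes, log2(TPM + 1) of a male KlKl library minus the median of the other 3 male KlKl libraries. Male KlKl 3 (red diamonds) runs from -1.76 for Crot to 0.84 for Acsl1, while the other libraries (grey) stay within -0.50 and 0.59.

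Reads of the 38 genes made up 0.900% to 1.21% of a male KlKl library and 1.09% to 1.18% of a male control library, against 0.713% to 0.912% of a female KlKl and 0.663% to 0.884% of a female control library. Male KlKl 3 gave the lowest male share. A large part of these reads came from Slc27a2, with 16767 to 67836 reads a library, of 65059 to 225388 for the 38 genes together. Within groups, female control 4 was the lowest library for 26 genes and female control 1 the highest for 25. Male control 2 was lowest for 22 and female KlKl 1 highest for 22. The sex difference was positive in both series of library names, for 36 (CFK) and 38 (CFdk) of the 38 genes in KlKl and for 33 and 35 in controls. After scaling it was positive for 31 and 32 in KlKl and for 31 and 30 in controls. The share of all genes with a positive difference by series is not given here, and their deposited median was itself positive. The KlKl effect in males was not alike in the series, positive for 38 genes in CFK (median 0.34) and for 21 in CFdk (median 0.03), or for 17 and 15 after scaling. Male controls of the CFK series were +/Kl and those of the CFdk series +/+, so the series and the genotype of the male controls cannot be told apart.

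The wider pathway was given by 96 further genes of fatty acid and peroxisome metabolism, of which 65 were tested. Among KlKl kidneys 52 were higher in males and 1 lower, against 50.9% and 3.72% of all genes tested, and among controls 48 and 1, against 44.3% and 8.3%. After scaling the counts were 24 and 4 in KlKl, against 18.9% and 17.3% of all genes, and 36 and 4 in controls, against 24.5% and 23.9%. Acsm3, a medium-chain acyl-CoA synthetase, had the largest difference, with 13.8 ± 9.86 TPM in male KlKl and 25.7 ± 2.89 in male controls, against 0.0775 ± 0.0213 in female KlKl and 0.0828 ± 0.0693 in female controls (SD, n = 4 each). Every female library was near 0, so Acsm3 passed the filter through male libraries alone, which favours a call of higher in males. The counts of this wider list were not repeated over genes at 1 TPM in both sexes. The difference of Acsm3 was 3.18 in KlKl and 4.62 in controls (adjusted p = 0.000569 and 3.21e-05). Acsm2, of the same family, had 55.8 ± 20.2 TPM in male KlKl and 81.6 ± 9.61 in male controls, against 15.5 ± 2.79 in female KlKl and 17.2 ± 1.897 in female controls, with differences of 1.72 and 2.18 (adjusted p = 3.05e-05 and 4.82e-06). Fabp3, a fatty acid binding protein, was the 1 lower gene, with 8.78 ± 0.742 TPM in male KlKl and 6.48 ± 0.916 in male controls, against 11.8 ± 1.41 in female KlKl and 10.9 ± 1.59 in female controls and differences of -0.38 and -0.67. No gene of this wider list passed between KlKl and control. The largest mean effects there were -0.73 for Acsm3, -0.55 for Lpl, the lipoprotein lipase, and 0.51 for Acot3, a peroxisomal thioesterase (adjusted p = 0.247, 0.164 and 0.163).

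Markers of cell types were read beside these values. The 11 proximal tubule markers summed to 387.7 to 465.9 TPM in male KlKl and 337.4 to 475.1 TPM in male controls, against 253.8 to 283.6 in female KlKl and 134.4 to 268.4 in female controls. Of these 11 markers 9 were higher in males among KlKl kidneys and 10 among controls, against 50.9% and 44.3% of all genes tested. After scaling 6 were higher in each, against 18.9% and 24.5%, and 0 were lower. These markers were not alike. Slc7a13 stood at 4.53 to 44.4 TPM in males and 0.0817 to 0.524 TPM in females. Slc5a2 overlapped among KlKl kidneys, at 44.96 to 96.71 TPM in males and 66.88 to 76.4 TPM in females. On the deposited scale the sex difference was positive for 10 of the 11 in KlKl and for all 11 in controls. Among tested markers of other cells, 2 of 3 for thick ascending limb were higher in KlKl males and 1 in control males. The counts were 0 and 0 of 4 for collecting duct, 1 and 1 of 3 for podocytes and 1 and 0 of 5 for macrophages. Distal convoluted tubule gave 1 and 0 of 2, and endothelium 1 and 1 of 1. In control males 1 thick ascending limb and 1 macrophage marker were lower, against 8.3% of all genes. After scaling 1 thick ascending limb marker was higher in KlKl males and 1 lower in each genotype. Collecting duct then had 2 lower in KlKl and 1 in controls. Distal convoluted tubule, podocytes and macrophages each had 1 lower in controls. Of all genes 17.3% were lower in KlKl males and 23.9% in control males after scaling. Their part in the sex difference of the list was not tested. Neither was that of read depth, which was greater in most male libraries. The 6 adipocyte markers summed to at most 1.36 TPM in any library and none was tested, the 4 muscle markers to at most 0.146 TPM and the 3 adrenal markers to at most 0.784 TPM. Erythrocyte markers summed to 96.03 to 479.3 TPM in male KlKl, 10.98 to 141.9 in male controls, 16.5 to 58.1 in female KlKl and 3.30 to 113.6 in female controls.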

How the data were processed

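The authors deposited 1 table of TPM, made with Partek on mm39 per the submitters' processing notes, with aligner, annotation and counting rule not given in the sources used here. Tested on the values, the deposited TPM sum to 309446 per library and follow reads plus 0.0001 over the span of a gene, introns included. Reads were recovered on that basis, and 78.9% to 85.6% of low values came out whole within 0.1 read. A Kl entry listed again was counted once. Limma 3.58.1 in R 4.3.3 fitted log2(TPM + 1) with a mean for each of 4 groups over 16 libraries (12 residual degrees of freedom, mean-variance trend). It tested the 8059 genes with 1 TPM or more in at least 4 libraries, and each adjusted p is limma's by Benjamini-Hochberg over all of them, with a threshold of 0.05. The pseudocount understates differences of low genes. Replicates differed by more than counting noise (lowest chi-square per degree of freedom 6.74). Pairs with female control 3 gave 89.66 to 127.9 and pairs with male KlKl 3 61.52 to 78.03, while no other pair exceeded 38.04. Female control 3 also had the fewest reads (8207526), the lowest mitochondrial part of TPM (30.73%) and the lowest sum of proximal tubule markers (134.4 TPM). Genes named with every value were those past the threshold in any of the 6 comparisons, the 3 largest differences of each, and the rate-limiting, regulatory and paralogous genes. The list and lists of further genes and markers were chosen with earlier results of these data known. Voom used median-ratio library sizes and a filter of at least 10 reads in 4 or more libraries. The fit was also run on simulated counts, with the same dispersion for every gene and libraries that differed in read depth alone. That setting has no shift of scale and no deviant library, so it cannot show how the fit handles those features here.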

Additional observations from a re-analysis of the deposited data

Results flagged for a closer look

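In 5 of the 152 groups of 4 libraries (38 genes in 4 groups), 1 library lay far from the other 3, past Dixon's critical value for the gap over the whole range. Chance gives about 1 in 20 groups, so the number is no excess. Cpt2 was lowest in male control 2, at 6.435 TPM against 7.945 to 8.232 in the other male controls. Etfb was also lowest in male control 2, at 24.53 TPM against 27.56 to 27.99. Acadm was highest in male control 3, a wild type, at 45.58 TPM against 30.01 to 31.10. Acaa1b was highest in male KlKl 2, at 62.32 TPM against 44.77 to 47.12, and shares sequence with Acaa1a. Acot1 was highest in male KlKl 3, at 15.19 TPM against 8.422 to 9.318, the library in which Crot and Ehhadh were lowest.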

How the results depend on the processing

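The scale of the libraries mattered most. On median-ratio scaled values the median KlKl difference of the list in males was -0.043 (with or without a replicate block), with quantile normalization -0.028, with voom -0.085 and with median-ratio scaling at a pseudocount of 0.1 -0.050. For the mean of both sexes it was -0.0077 with median-ratio scaling, alone, with the block or with that pseudocount (-0.0077), and -0.021 with voom. The sex difference of the list in KlKl was 0.303 (median-ratio, with or without block), 0.350 (quantile), 0.370 (voom), 0.346 (pseudocount 0.1 after scaling) and 0.384 (scaled, without female control 3 and male KlKl 3), and in controls 0.332, 0.335, 0.447, 0.371 and 0.342 in that order. Genes called in either direction between KlKl males and females numbered 17 (median-ratio), 19 (quantile), 19 (voom), 18 (median-ratio with block) and 17 (median-ratio, pseudocount 0.1). With median-ratio scaling 18.9% of all genes were higher in KlKl males and 17.3% lower. The scaled fit without female control 3 and male KlKl 3 called 22 higher and 2 lower in KlKl males. In control males that fit called 25 higher and 2 lower. Shares of all genes are not given here for that fit, for quantile normalization, or for the scaled fits with block or pseudocount. Their counts are therefore not read against all genes. A filter at a mean of 5 TPM left 20 genes and called 17 in each genotype, having fewer genes to test. Age as a covariate called 2 genes for KlKl in males and 5 for the mean effect. The KlKl sex difference of Hadhb reversed to -0.098 (median-ratio, with or without block), -0.143 (quantile), -0.107 (voom), -0.126 (pseudocount 0.1 after scaling) and -0.047 (scaled, without those 2 libraries), and that of Acot2 to -0.032 with quantile normalization. The cause of these shifts was not tested beyond the scaling itself.

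Leaving out each of the 16 libraries in turn gave 25 to 30 genes higher in control males and 26 to 30 in KlKl males, and 25 and 26 genes kept the call throughout. With all 16 libraries 44.3% and 50.9% of all genes tested were higher in males. Shares of all genes in the single fits, with the replicate block and with the 5 TPM filter are not given here. Those counts therefore describe stability alone. The replicate block, on deposited values, called 29 genes in each genotype for sex and 0 for KlKl. Replicate numbers did not pair the samples, since same-numbered libraries of 2 groups correlated at -0.222 to 0.219, and the block result is given once for that reason. Added after seeing the data were median-ratio scaling with the block, with a pseudocount of 0.1, and without female control 3 and male KlKl 3, and the counts over genes that reach 1 TPM in at least 4 libraries of each sex. A count model (edgeR) on recovered reads was not run, since the deposited unit is TPM. Limiting the fit to the libraries of a contrast could not be applied to the mean effect and the difference of effects, which use all libraries. Depth limited Pdk4, Acot2 and Ppara most, at 95, 177 and 199 reads in their lowest libraries.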
